A study of Bos grunniens with 18 samples.

Results

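The steroid hormone receptor genes described here are ESR1, NR3C1, NR3C2 and PGR, which encode the receptors for estrogen (alpha form), glucocorticoids, mineralocorticoids and progesterone. They were taken by gene symbol from the expression table, in which each symbol had 1 row, and are 4 of its 18467 genes. Their identifiers are ENSBGRG00000006011 (ESR1), ENSBGRG00000012083 (NR3C1), ENSBGRG00000011166 (NR3C2) and ENSBGRG00000015051 (PGR). The study mapped m6A, adenosine methylated at N6 within mRNA, in the cauda (tail), corpus (body) and caput (head) of the epididymis of 6 healthy male yaks (Bos grunniens), adults aged 4 years. Poly(A) RNA was fragmented and sequenced before (input) and after (RIP) enrichment with an m6A antibody, with 3 RIP and 3 input libraries in each of the 3 regions. The labels give no treatment and no strain. Which animal gave which library is not stated, so the spread among libraries may be partly technical. The input libraries come from 3 regions, so a spread over all of them also holds any difference between regions.

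Steroid receptors are transcription factors that are switched on by a hormone that enters the cell. Held by chaperones until the hormone binds, they then attach to DNA response elements and recruit coregulators. In the male tract, estrogen receptor alpha is known in rodents for the fluid reabsorption that concentrates sperm in the efferent ducts, and the mineralocorticoid receptor is known in kidney and colon for sodium uptake. m6A on a receptor mRNA is one of the marks through which its stability and translation can be controlled.

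Expression was available as FPKM, a level corrected for transcript length and library depth, in 9 input columns whose codes (EA, EB and EC, with 3 columns each) match no region label. The 9 libraries are therefore given one by one under their codes, and no expression comparison between regions was made. FPKM values fell on whole steps, from which 23312614 to 29145872 gene-assigned fragments per library were recovered. By the size of the steps, the depth used for FPKM was 1.26 times as high in the deepest library as in the shallowest. Epididymal genes were expressed in each library: the summed level of 25 principal cell and epididymal genes ranged from 7531 FPKM in EC2_2 to 139666 FPKM in EA3_1. The library EC2_2 stood apart, with the highest sums of sperm and spermatid genes (2100 FPKM, where the median library had 350), of leukocyte genes (82.2 FPKM, median 39.9), of smooth muscle genes (7515 FPKM, median 4436) and of basal cell genes (260 FPKM, median 190). Its sum of multiciliated cell genes (32.4 FPKM, median 1.33) was close to that of EA2_1 (30.6 FPKM). Each marker gene matched in the lists was above 0 in at least 1 library. In bulk tissue, fewer cells of a type and less RNA per cell cannot be told apart.

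All 4 receptors were transcribed at modest levels in the epididymis, in the order ESR1, NR3C1, NR3C2 and PGR. Their medians over the 9 libraries were 4.04 FPKM for ESR1, 2.79 for NR3C1, 1.996 for NR3C2 and 0.427 for PGR. The ranges of ESR1, NR3C1 and NR3C2 overlapped over libraries. Within a library, ESR1 was above NR3C1 in 8 of 9 libraries and above NR3C2 in 9 of 9, and NR3C1 was above NR3C2 in 7 of 9. PGR lay below the other members in 9 of 9 libraries, and its range did not overlap theirs.

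ESR1 had 2.65 FPKM in EA2_1, 2.91 in EA3_1 and 6.43 in EA4_1, then 4.75 in EB1_3, 3.82 in EB1_4 and 4.04 in EB2_1, and 6.62 in EC2_2, 3.91 in EC3_2 and 8.36 in EC4_1. The highest library exceeded the lowest 3.16-fold, and the 3 high libraries, EC4_1, EC2_2 and EA4_1, came from more than 1 code. These values rest on 150 fragments in EA2_1 (95% exact Poisson interval 127 to 176) up to 516 in EC4_1 (472 to 563). The intervals, here and below, cover counting error only, and the fragment numbers are the smallest whole numbers that give the deposited values.

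NR3C1, the glucocorticoid receptor, had 1.36 FPKM in EA2_1, 1.82 in EA3_1 and 2.79 in EA4_1, then 6.15 in EB1_3, 2.91 in EB1_4 and 2.44 in EB2_1, and 4.46 in EC2_2, 1.53 in EC3_2 and 4.35 in EC4_1. EB1_3 was the highest at 366 fragments (interval 329 to 405) and EA2_1 the lowest at 80 (63.4 to 99.6). The range was 4.52-fold. EB1_3 also had the lowest FPKM sum over all genes (774029) and EC3_2, where NR3C1 was second lowest, had the highest (969271). With each value divided by its library's FPKM sum, the NR3C1 range was 5.03-fold. Division by these sums moves EB1_3 and EC3_2 further apart in any case, so the wider range decides nothing. Over the 9 libraries, log2(FPKM + 1) of NR3C1 and the FPKM sum had a Pearson correlation of -0.61. The same correlation was -0.49 for PGR, -0.48 for NR3C2 and -0.15 for ESR1. A part of the FPKM sum in these levels was not tested.

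NR3C2, the mineralocorticoid receptor, had the narrowest range of the 4 as a ratio of highest to lowest FPKM. It had 1.78 FPKM in EA2_1, 1.44 in EA3_1 and 2.17 in EA4_1, then 2.59 in EB1_3, 1.996 in EB1_4 and 1.70 in EB2_1, and 3.92 in EC2_2, 1.70 in EC3_2 and 2.58 in EC4_1. The one high value was that of EC2_2, at 492 fragments (interval 449 to 537). Over all 9 libraries the range was 2.73-fold, and without EC2_2 it was 1.80-fold. EC2_2 is the library with the highest sperm, leukocyte, smooth muscle and basal cell sums given above, whose part in the NR3C2 level was not tested. The multiciliated sum was also highest in EC2_2, with EA2_1 close to it. A part of the multiciliated sum in the NR3C2 level was not tested either.

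PGR, the progesterone receptor, was the scarcest of the 4 and stayed under 1 FPKM in every library. It had 0.578 FPKM in EA2_1, 0.0794 in EA3_1 and 0.217 in EA4_1, then 0.667 in EB1_3, 0.192 in EB1_4 and 0.780 in EB2_1, and 0.593 in EC2_2, 0.185 in EC3_2 and 0.427 in EC4_1. The range, 9.82-fold, is the widest of the 4 as a ratio, and each code held both a low and a high library. In fragments, EA3_1 had 6 (interval 2.20 to 13.1), in the deepest library, and EB2_1 had 49 (36.3 to 64.8), so the difference between these 2 libraries is larger than the counting error.

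**Figure D1:**
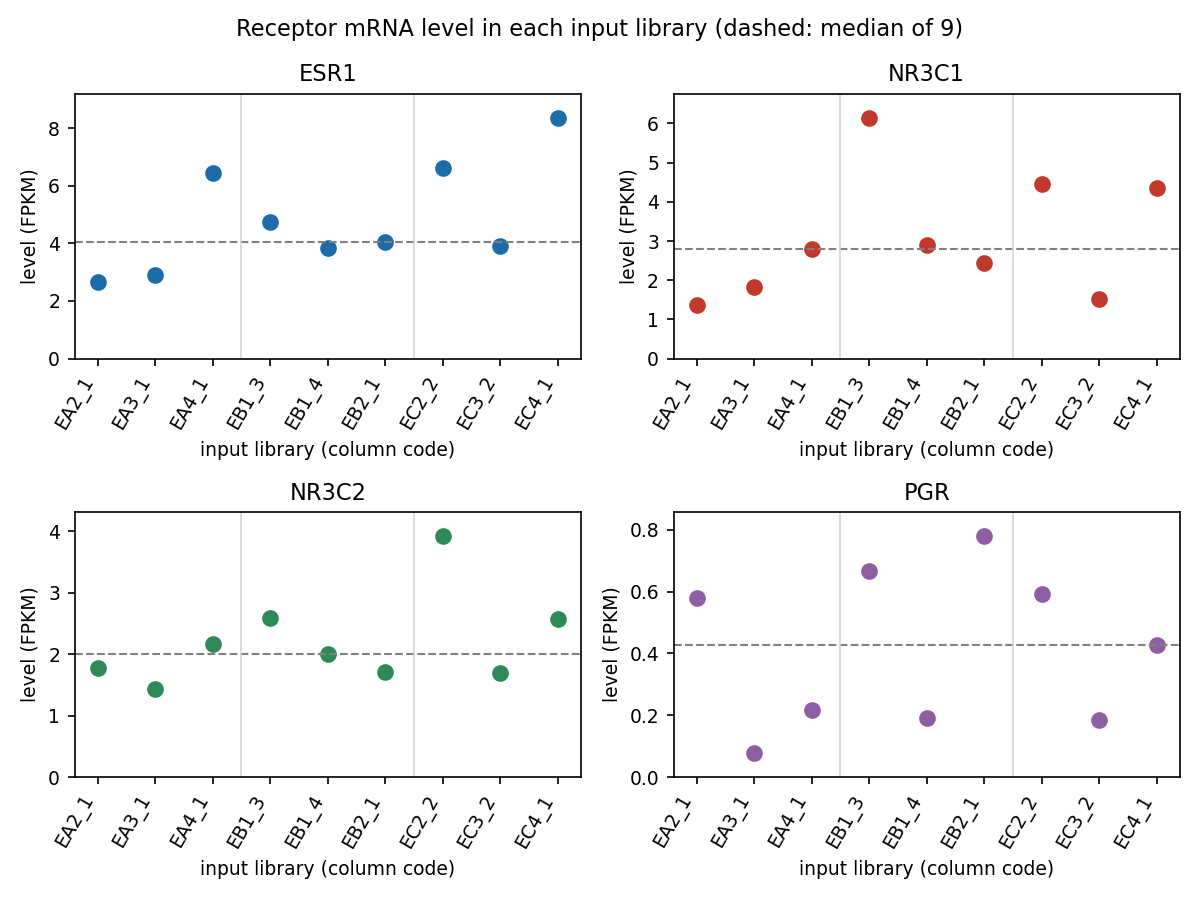
Level in FPKM (linear axis from 0) of each receptor in each of the 9 input libraries, named by their column codes; each point is 1 library, the dashed line is the median of the 9, and thin lines separate the codes. NR3C2 has a single high library, EC2_2, and PGR stays below 0.8 FPKM.

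Among the 51 genes of the receptor lists, which hold membrane proteins such as PGRMC1 beside nuclear receptors, ordered by median FPKM, ESR1 ranked 23, NR3C1 28, NR3C2 30 and PGR 38. Their medians exceeded those of 50.1%, 44.7%, 40.3% and 26.6% of all genes of the table. Of the other receptors, 5 of 8 in the list of steroid receptors and 27 of 39 in the list of nuclear receptors had a median of at least 1 FPKM. The highest of them were NR2F6 (median 116 FPKM), an orphan receptor, and PGRMC1 (107 FPKM), a membrane-associated heme protein once described as a progesterone receptor component, which ranged from 68.4 to 510 FPKM. The lowest PGRMC1 level, 68.4 FPKM, was above the highest PGR level, 0.780 FPKM.

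**Figure D2:**
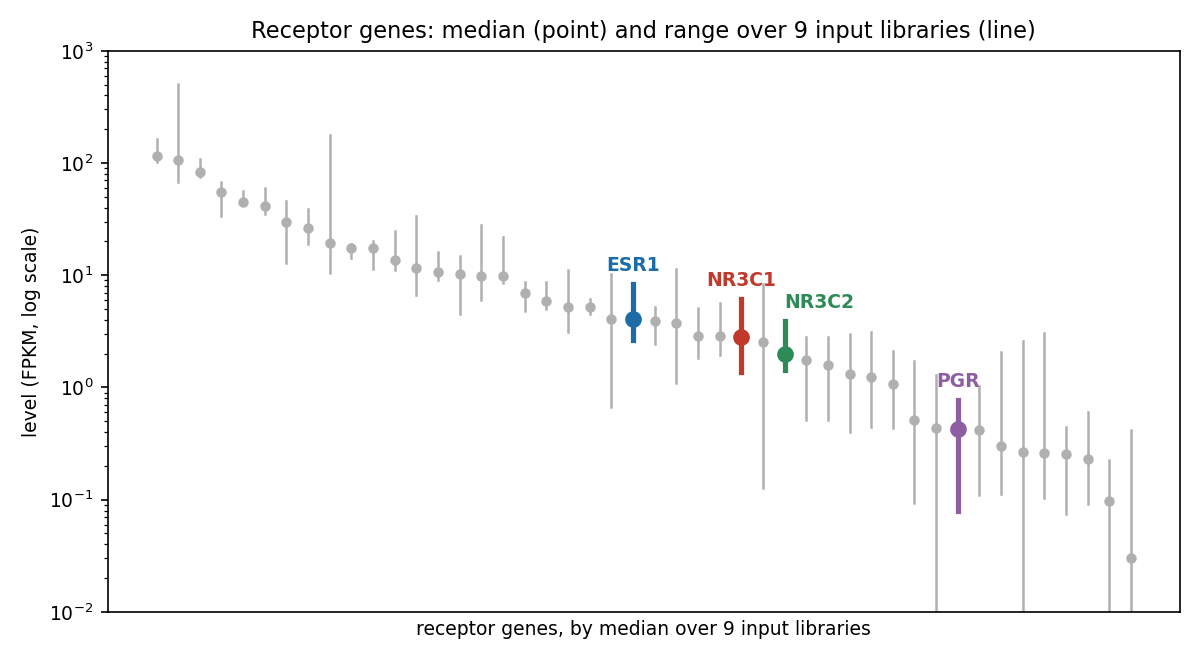
Median FPKM (points, log axis) and lowest to highest of the 9 input libraries (lines) for the 46 receptor genes whose median is above 0, in falling order; lines that reach the lower edge include a library at or below 0.01 FPKM. ESR1, NR3C1 and NR3C2 lie near the middle of the lists and PGR lies lower.

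Chaperones that hold unliganded receptors, such as the heat shock protein 90 family and its cochaperones, were abundant, with a median of 78.3 FPKM over 14 genes and 13 of them at 1 FPKM or more. Coregulators had a median of 9.82 FPKM over 20 genes, 18 at 1 FPKM or more. Steroid-converting enzymes and carriers had a median of 4.79 FPKM over 20 genes, with 13 at that level, and receptor target genes a median of 13.2 FPKM over 20 genes, with 15.

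For m6A, the authors compared the peaks of each pair of regions and deposited a fold, a p-value and an adjusted p-value per peak, where a peak is an enriched stretch of an mRNA with a median length of 251 bases. These tables give 1 value per peak and comparison and none for single libraries, and the folds therefore come without an error over replicates. The sources used here name neither the test behind the p-values nor the genome build. Nor do they say whether folds were taken relative to the input, and methylation cannot then be told apart from mRNA abundance. Exons and UTRs were not analysed here. A peak is called here at an adjusted p under 0.05.

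No receptor peak was called in any comparison. ESR1, NR3C1 and NR3C2 had peaks and PGR had none in the 3 tables. In the authors' deposited table, 0 of 2 receptor peaks were called for the corpus over the caput, where 2.98% of all 14061 peaks were, and 1 of the 2 had an unadjusted p under 0.05 (16.4% of all peaks). For the cauda over the caput, 0 of 5 were called against 2.27% of 13826 peaks in the authors' deposited table, and 1 of the 5 had an unadjusted p under 0.05 (17.2% of all peaks). For the cauda over the corpus, 0 of 2 were called against 1.96% of 13917 peaks, and 0 had an unadjusted p under 0.05 (16.4% of all peaks), in the authors' deposited table. With 2 to 5 peaks per comparison, 0 called peaks are not distinguishable from these backgrounds. At an adjusted p under 0.05 and at least a 2-fold difference, 0 receptor peaks were called, where 0.718% of peaks were for the corpus over the caput, 0.448% for the cauda over the caput and 0.338% for the cauda over the corpus. At an adjusted p under 0.10, the receptor counts were 0, 1 (ESR1) and 0, where 4.53%, 4.37% and 3.46% of all peaks passed in these comparisons. PGR is one of the genes with low levels: of 6165 genes with a median under 1 FPKM, 11.9% had a peak in any of the tables, and of 6005 genes with a median from 1 to 10 FPKM, 70.8% did. The median of PGR, 0.427 FPKM, exceeded that of 26.6% of all genes, so the first group holds many genes with lower levels. The share at the level of PGR itself was not taken.

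ESR1 had the largest fold among the receptor peaks. Its peak on chromosome 10 from 112417757 to 112422732, minus strand, spans 4976 bases of genome but only 148 bases of mRNA, so its bases are split over the genome, as in a spliced mRNA. The authors' deposited table gives a cauda over caput ratio of 2.87 for it, a log2 fold of 1.52, with p = 0.00155 and adjusted p = 0.0661. Of all peaks of that comparison, 0.514% had a larger absolute log2 fold, and 399 peaks had a lower adjusted p. For the cauda over the corpus the same stretch, here 197 bases of mRNA from 112417757 to 112422781, had 0.57 on the log2 scale (p = 0.389, adjusted p = 0.796, by the authors' deposited table). Both values were positive, but neither passed the adjusted threshold, and the stretch has no entry for the corpus over the caput. The second ESR1 peak, on chromosome 10 from 112589557 to 112589704, minus strand, lies 5′ of the first in the gene. Its log2 fold was -0.48 for the cauda over the caput (p = 0.49, adjusted p = 0.879, by the authors' deposited table). The outer ends of the ESR1 peaks are 172 kilobases of genome apart.

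NR3C1 had a peak in the same place of chromosome 8, minus strand, in all 3 comparisons, with different ends. In the corpus over caput comparison, the stretch from 59323966 to 59324514 (549 bases) had -0.77 on the log2 scale (p = 0.0977, adjusted p = 0.485, by the authors' deposited table). For the cauda over caput comparison, the stretch from 59323567 to 59324514 (948 bases) had -0.14 (p = 0.355, adjusted p = 0.787, by the authors' deposited table). In the cauda over corpus comparison, the stretch from 59323517 to 59324514 (998 bases) had 0.38 (p = 0.0741, adjusted p = 0.423, by the authors' deposited table). The log2 fold was negative with the corpus over the caput and positive with the cauda over the corpus, and none was called. Each pair of comparisons shares a region, so the 3 folds are not independent. Of all peaks of the same comparison, 16.5% were longer than the 549-base NR3C1 peak, 4.98% were longer than the 948-base one and 4.34% were longer than the 998-base one.

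NR3C2 had peaks at both ends of a stretch of 479 kilobases on chromosome 16, minus strand. At the peak from 4590773 to 4591120 (348 bases), the corpus over caput log2 fold was -0.69 (p = 0.0407, adjusted p = 0.325, by the authors' deposited table), and 7.62% of all peaks of that comparison had a larger absolute log2 fold. The same peak had -0.45 for the cauda over the caput (p = 0.444, adjusted p = 0.845, by the authors' deposited table). The other peak, from 5069207 to 5069504 (298 bases), lies 5′ of it and had 0.41 for the cauda over the caput (p = 0.302, adjusted p = 0.748, by the authors' deposited table). The peaks of this gene thus had opposite signs in that comparison, as had those of ESR1, and none was called.

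**Figure D3:**
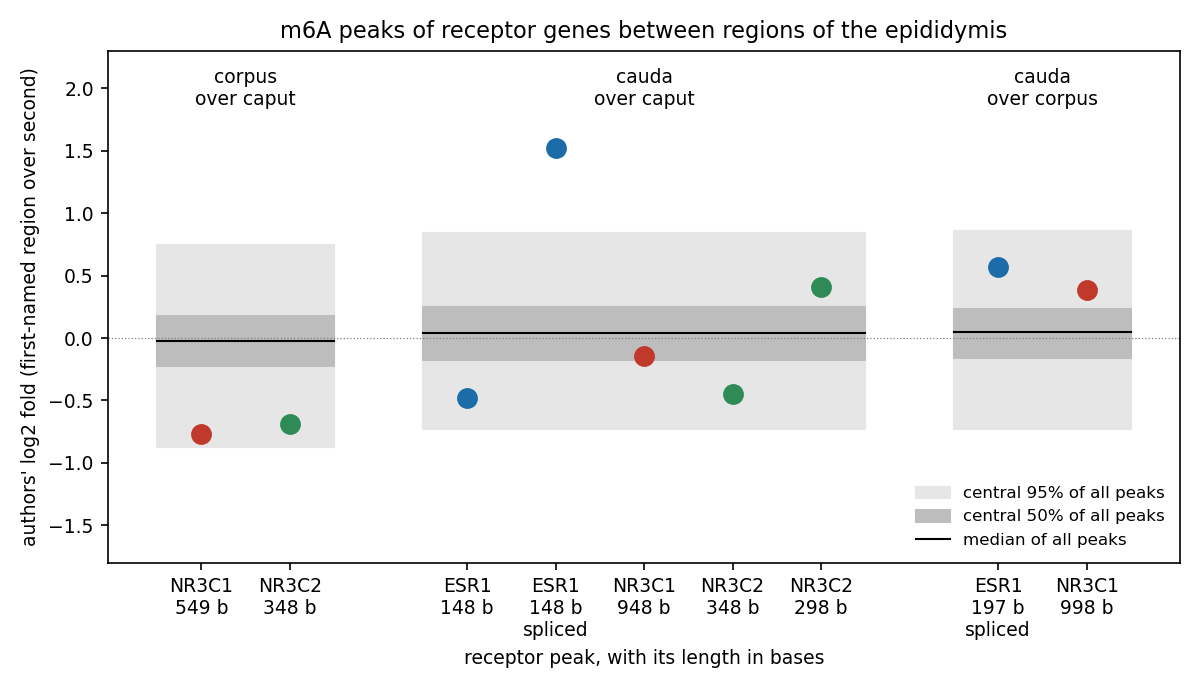
The authors' log2 fold of each receptor peak (points) in the 3 comparisons, with the peak's length in bases of mRNA below it; shaded bands give the central 95% and 50% of all peaks of the comparison and the black line their median. The spliced ESR1 peak, at 1.52 for the cauda over the caput, is the single point outside the 95% band.

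Each region also has a list of candidate adenosines within its peaks, with the authors' prediction score and class. The deposited classes start at combined scores of 0.557 (low confidence), 0.584 (moderate), 0.62 (high) and 0.676 (very high). The score is a property of a position and not a level of methylation. Over the 3 lists, peaks of the receptor genes held 36 candidate positions, of which 4 were classed as m6A sites (11.1%, 95% exact binomial interval 3.11 to 26.1), where 18.7% of all 143390 positions were. The interval covers counting error only and includes the overall share.

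NR3C1 held most of them, 21 positions, and 3 of its positions were classed as m6A sites. The caput list had 12 positions in 2 peaks, the corpus list 14 in 3 peaks and the cauda list 21 in 1 peak. Positions 59324246 (score 0.592, moderate) and 59324264 (0.621, high) were listed in all 3 regions. The third, position 59323854 (0.661, high), was listed for the cauda alone. It lies between the peaks listed for the other regions, which end at 59323766 in the caput and 59323816 in the corpus and resume at 59323966 in both, whereas the cauda peak runs without a break from 59323517 to 59324514. In all, 11 positions were in 3 lists, 4 in 2 lists and 6 in the cauda list alone. A listing in 1 region is not a measured difference, and the log2 folds of this peak, given above, were -0.14 for the cauda over the caput and 0.38 for the cauda over the corpus, neither of them called.

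**Figure D4:**
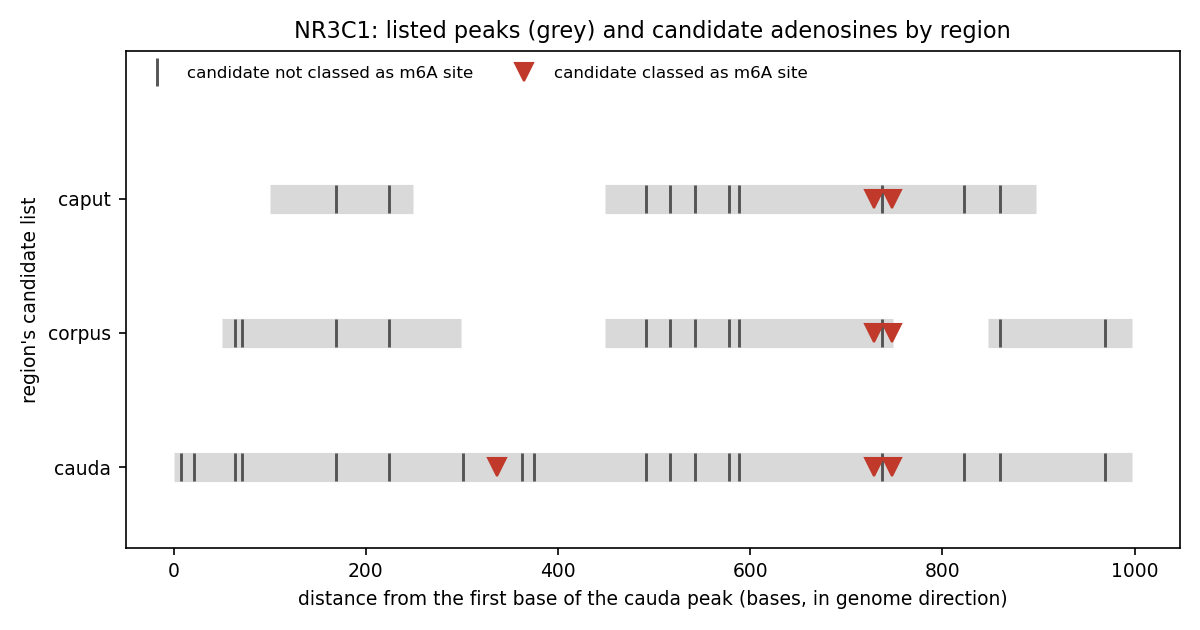
NR3C1 peaks (grey bars) and candidate adenosines in the candidate list of each region, by distance in bases from the first base of the cauda peak, in genome direction; triangles are positions classed as m6A sites and ticks the other candidates. The cauda has 1 unbroken peak of 998 bases with 3 classed positions, and the caput and corpus have 2 of these positions in shorter peaks.

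NR3C2 held 14 candidate positions, 13 in the caput list, 2 in the corpus list and 1 in the cauda list. The 5′ peak held the single position classed as an m6A site, 5069265, with a score of 0.677 (very high confidence), listed in the caput and the corpus. The cauda list has this stretch only from 5069355 to 5069504, which leaves that position out. The 3′ peak, from 4590773 to 4591120, was listed for the caput alone, with 11 candidates scored 0.349 to 0.539 and 0 classed as m6A sites. Its log2 folds for the corpus and the cauda over the caput, given above, were negative, and neither was called.

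ESR1 held 1 candidate, position 112589570 in the 5′ peak, listed in the caput and the cauda with a score of 0.506, below the lowest m6A class. The spliced ESR1 peak with the largest fold has no listed candidate in any region. PGR has no peak by which candidates could be assigned.

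Peaks of the wider receptor pathway were counted in the same tables. For the corpus over the caput, 60 genes of the pathway lists had 142 peaks, of which 1 was higher and 4 were lower in the authors' deposited table (3.52% called, where 1.12% of all peaks were higher and 1.86% lower). Their median log2 fold was -0.06, and that of all peaks -0.02. With the cauda over the caput, 67 genes had 135 peaks, with 3 higher and 3 lower in the authors' deposited table (4.44% called, where 1.41% of all peaks were higher and 0.861% lower). Their median log2 fold was -0.00011 beside 0.04 for all peaks. With the cauda over the corpus, 66 genes had 146 peaks, with 2 higher and 0 lower in the authors' deposited table (1.37% called, where 1.24% of all peaks were higher and 0.719% lower), and the median log2 folds were 0.03 and 0.05. In the lists of other steroid receptors, chaperones and steroid-converting enzymes, 0 peaks were called in any of the 3 comparisons. These lists held 9, 15 and 8 peaks for the corpus over the caput and for the cauda over the caput. For the cauda over the corpus they held 9, 14 and 9. With so few peaks, 0 called is not distinguishable from the shares of all peaks.

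Among other nuclear receptors, the hepatocyte nuclear factor Hnf4a had a lower peak in the corpus than in the caput (-0.45 on the log2 scale, adjusted p = 0.00209, by the authors' deposited table). By the authors' deposited table it had 2 lower peaks in the cauda than in the caput, at -0.63 (adjusted p = 1.86e-05) and -1.22 (adjusted p = 0.0240). Its level differed widely between input libraries, from 0.128 to 8.35 FPKM. RORA, a receptor of the circadian system, had 2 peaks, of which 1 was higher in the cauda than in the caput (1.17, adjusted p = 0.00282, by the authors' deposited table). The RORA level also ranged widely, from 0.670 to 10.2 FPKM. The part of these levels in the folds was not tested. THRA, a thyroid hormone receptor, had 1 higher peak of 2, at 0.11 for the cauda over the caput by the authors' deposited table (adjusted p = 0.0380). NR2F1, an orphan receptor, had 1 higher peak of 3, at 0.29 for the cauda over the corpus by the authors' deposited table (adjusted p = 0.0479).

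Among coregulators, 1 of the 2 peaks of TRIM24, a chromatin-binding cofactor, was lower in the corpus than in the caput (-0.65, adjusted p = 0.0240, by the authors' deposited table). Of the 6 peaks of the histone acetyltransferase CREBBP, 1 was higher there, at 0.85 (adjusted p = 0.0269, by the authors' deposited table). By the authors' deposited table, 1 of 2 peaks of Ncoa7 was higher in the cauda than in the caput (0.34, adjusted p = 0.0302). Against the corpus, 1 of its 4 peaks was higher in the cauda (0.36, adjusted p = 0.0372, by the authors' deposited table). These comparisons share the cauda libraries. Of the receptor target genes, the chloride channel gene CFTR had a lower peak in the corpus than in the caput (-0.98, adjusted p = 0.0200, by the authors' deposited table). The carbonic anhydrase gene CA12 is an estrogen target in human breast cells. By the authors' deposited table, 1 of its 2 peaks was lower in the corpus than in the caput (-0.86, adjusted p = 0.0275), and its 1 peak of the cauda over caput comparison was lower in the cauda (-1.23, adjusted p = 0.0141). Input levels ranged from 0.109 to 3.57 FPKM for CFTR and from 0.276 to 1.84 for CA12. They ranged from 4.56 to 30.5 FPKM for TRIM24, from 7.18 to 15.6 for CREBBP and from 2.47 to 5.89 for Ncoa7. The part of these levels in the folds was not tested.

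The genes most like each receptor over the 9 input libraries were found by Pearson correlation of log2(FPKM + 1) among 12669 genes (12670 for PGR) with a symbol and a mean of at least 1 FPKM, the receptor itself left out. The points share their libraries and depths, and the libraries come from 3 regions, so r is a description only. Among the genes most like ESR1 were Pde7b (r = 0.96), a cyclic AMP phosphodiesterase, and ARHGAP20 (r = 0.92), a GTPase-activating protein. NR3C1 was most like FMNL2 (r = 0.98), a formin, KIRREL1 (r = 0.98), a cell adhesion protein, and TRPS1 (r = 0.98), a GATA-type repressor, and for FMNL2 the rank order of the 9 libraries was identical. Among the genes most like NR3C2 were DOCK10 (r = 0.97), a guanine nucleotide exchange factor, and TOR1AIP1 (r = 0.96), a nuclear membrane protein. Without EC2_2 these last values were 0.94 for DOCK10 and 0.90 for TOR1AIP1. PGR was most like DLL3 (r = 0.93), a Notch ligand, TSPAN1 (r = 0.92), a tetraspanin, and PRPF19 (r = 0.91), a splicing factor. PGR itself had a mean under 1 FPKM, so its pattern rests on 6 to 49 fragments per library.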

How the data were processed

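The 9 input columns of the expression table hold FPKM computed by the authors. Per the file headers, the comparison tables give the authors' p-value, adjusted p-value, fold (ratio) and log2 fold per peak, first-named over second-named region, and the candidate lists give the authors' prediction score. The submitters' processing notes name Trimmomatic, HISAT2 and deepTools; no source used here names the peak caller, differential test, site predictor, counter or genome build. No values per library were available here for peaks, so no test was run, and calls use the authors' adjusted p-values. Candidates were assigned to a receptor where their peak overlaps one of its peaks by at least 1 base, each position counted once with its highest score. Peak starts were converted to count from 1. Fragments were recovered from the deposited FPKM steps as the smallest whole numbers within 0.01, for 16357 of 16358 genes with at least 5 values above 0. Step recovery and correlation ranking were tested on simulated data. Alternatives were a pseudocount of 0.1 for 1, no filter on low values, rank correlation, other thresholds and repeats counted; column-sum scaling and leaving out libraries were added after seeing the data.

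The receptor genes and the pathway and marker lists were chosen with earlier results of these data known. Named pathway genes have a peak called at an adjusted p under 0.05 (up to 8 per comparison), and the 3 genes most like each receptor are named, except 1 for ESR1 and 1 for NR3C2 that are not reported here; PGRMC1 and NR2F6 were named after their values were seen. Of the enzyme list 19 of 28 symbols, and of the target list 19 of 22, were matched. Python 3.11.15, pandas 2.3.3, NumPy 2.4.6, SciPy 1.17.1 and Matplotlib 3.10.9 were used.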

Additional observations from a re-analysis of the deposited data

Results flagged for a closer look

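In FPKM as given, the NR3C2 level of the input library EC2_2 lay far from the other 8. It had 3.92 FPKM, and the next highest library had 2.59. The gap divided by the range of the 9 libraries was 0.538, above Dixon's 95% critical value. Chance sets apart about 5% of groups, and 4 genes were looked at. EC2_2 also had the highest summed levels of sperm and spermatid genes (2100 FPKM) and of leukocyte, smooth muscle and basal cell genes. The part of any of these sums in the NR3C2 level was not tested.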

How the results depend on the processing

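By the authors' deposited table, 1 receptor peak had an unadjusted p under 0.05 for the corpus over the caput (NR3C2) and 1 had one for the cauda over the caput (ESR1), and at an adjusted p under 0.10 the ESR1 peak was again the 1 called; a 2-fold minimum left all counts at 0. Counting every line of the candidate lists, repeats included, gave 90, 50 and 67 receptor candidates in the caput, corpus and cauda, in place of 26, 16 and 23, and 10, 10 and 9 classed as m6A sites in place of 3 in each. The log2 range over the 9 libraries moved to 1.39 for NR3C2 and 2.29 for PGR with a pseudocount of 0.1 (1.01 and 0.72 with 1), which follows from the smaller pseudocount on low values. Without the library EC2_2 the NR3C2 range was 0.56. Of the 3 genes most like a receptor, 2 or 3 were kept with a pseudocount of 0.1 or no filter, 0 for ESR1, NR3C2 and PGR and 2 for NR3C1 by rank correlation, and 0 to 3 when 1 library was left out, so these names depend on single libraries. Depth limits PGR, at 6 to 49 fragments per library. No paired analysis was possible because the peak tables hold no values per library and the input columns match no region label, and the labels do not explain the numbers in their names.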

Other observations

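The values of the 3 codes of input libraries overlapped for each receptor. ESR1 ranged from 2.65 to 6.43 FPKM in EA, from 3.82 to 4.75 in EB and from 3.91 to 8.36 in EC. NR3C1 ranged from 1.36 to 2.79 FPKM in EA, from 2.44 to 6.15 in EB and from 1.53 to 4.46 in EC. NR3C2 ranged from 1.44 to 2.17 FPKM in EA, from 1.70 to 2.59 in EB and from 1.70 to 3.92 in EC, and PGR from 0.0794 to 0.578, from 0.192 to 0.780 and from 0.185 to 0.593. The labels do not tie the codes to a region. The number after the code is shared by EA2_1 and EC2_2, by EA3_1 and EC3_2 and by EA4_1 and EC4_1, and the labels do not say what it marks. Over these 3 numbers, the EC column was above the EA column in 3 of 3 for ESR1, NR3C2 and PGR and in 2 of 3 for NR3C1. The same count was not made over all genes, so it cannot be read as a trait of the receptors. For PGR, EA2_1 and EC2_2 had 36 and 40 fragments, with overlapping intervals. The order was noticed after the values were seen and was not tested.

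A further peak of the caput list lies between the NR3C2 peaks, on chromosome 16 from 4634661 to 4645916, and spans 11256 bases of genome. It held 3 candidate positions with scores of 0.474 to 0.549, of which 0 were classed as m6A sites. It overlaps no peak of the comparison tables, so it is assigned to no gene here.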
